A study of Mus musculus with 8 samples.

Results

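The 10 amino acid transporter genes described here were Slc7a11, Slc7a5, Slc3a2, Slc7a1, Slc7a3, Slc7a6, Slc1a4, Slc1a5, Slc38a2 and Slc6a9, taken by symbol with every probe set annotated to only that symbol. They were read by 20 of 45101 probe sets, and by gene they were 10 of the 18194 genes with a symbol of their own. No measured value was a criterion for a gene, but the genes were chosen with earlier results of these data known. Their counts beside the shares of all tested genes are therefore a description and not independent support. The study profiled total RNA from 2 mouse cell lines on 8 Affymetrix expression arrays, 1 for each sample. In B16F10, a melanoma line, 3 clones (clone 1, clone 2 and clone 3) that expressed PGC7 were compared with 1 B16F10 control array. In NIH3T3, an embryonic fibroblast line, 2 PGC7 clones and 1 uncloned culture, a mixture of PGC7-expressing clones, were compared with 1 NIH3T3 control array. PGC7, also called Stella or Dppa3, is a germ cell and oocyte protein that was carried into the cells by virus in the presence of polybrene, and the question of the design is what its forced expression changes. Both lines were kept in Dulbecco's medium with fetal bovine serum.

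Each clone is 1 clonal line, so a clone's values also carry whatever set that clone apart. The labels do not say whether the controls were exposed to an empty virus. The titles placed the arrays in their groups, since the genotype field of all 6 PGC7 samples gave the name PGC8 and described the cells as not yet cloned. Nothing says that the arrays of a group came from separate infections, so the p-values reflect no more than how far these samples differ from each other, which may be partly technical. Each line had 1 control array, which enters all 3 of its comparisons, so an unusual control would move those 3 values together.

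Amino acid transporters of the plasma membrane bring in what the cell cannot make fast enough, and many of them are exchangers that give up an amino acid for each one they take. Slc7a11 (xCT), Slc7a5 (LAT1) and Slc7a6 (y+LAT2) are light chains that reach the membrane bound to the heavy chain Slc3a2, also called CD98 or 4F2hc. Cystine taken up through Slc7a11 supplies cysteine for glutathione. When amino acids run short, or the endoplasmic reticulum is stressed, cells translate the transcription factor ATF4, which binds C/EBP-ATF elements and is known to raise several of these transporters, Slc7a11 and Slc3a2 among them. Cells in culture commonly take their cysteine as cystine from the medium.

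Promoter sequences are shown for Slc7a11 and Slc1a4, the transporters whose change passed the test in B16F10, and for Slc3a2, the partner chain of Slc7a11, which did not pass. They are RefSeq sequences of GRCm38.p6, from 120 bases before to 20 bases after an annotated transcript start, on the minus strand of chr3:50443594-50443733, chr11:20332694-20332833 and chr19:8713878-8714017. Capitals mark each match to TGATGNAA, the core of the C/EBP-ATF element, on either strand.
Slc7a11: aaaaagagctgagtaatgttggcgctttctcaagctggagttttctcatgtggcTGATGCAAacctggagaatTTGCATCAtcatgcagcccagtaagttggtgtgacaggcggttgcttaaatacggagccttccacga
Slc1a4: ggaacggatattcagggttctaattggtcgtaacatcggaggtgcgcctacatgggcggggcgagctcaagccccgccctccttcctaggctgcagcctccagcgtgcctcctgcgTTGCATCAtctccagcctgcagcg
Slc3a2: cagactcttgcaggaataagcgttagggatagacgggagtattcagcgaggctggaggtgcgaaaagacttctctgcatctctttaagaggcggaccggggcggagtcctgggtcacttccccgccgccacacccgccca
The motif was searched in windows of 300 bases, 250 before and 50 after the start. There were 11 such windows for 7 of the 10 genes, and none for Slc7a5, Slc7a3 and Slc1a5. Slc7a11 held 2 matches, with first bases 66 and 47 bases before the start, on opposite strands. Slc1a4 held 1, starting 4 bases before the start, and the windows of the other 5 genes held none. Across 32851 RefSeq windows of this length, 3.97% held a match and 0.07% held 2 or more. By gene, 2 of the 7 held a match, against 4.51% of 27025 genes. The antioxidant response motif TGACNNNGC was found in 4 of the 7 genes, namely Slc7a1, Slc7a6, Slc38a2 and Slc6a9, against 14% of 27025 genes. The overlapping windows of Slc7a6 share the same site. The E-box CACGTG was in none of the 7, against 8.09% of genes. Overlap between the motifs was not removed. These are matches of letters only. Sequence more than 50 bases after a start was not searched, so a window without a match does not mean that the gene lacks the motif.

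**Figure D1:**
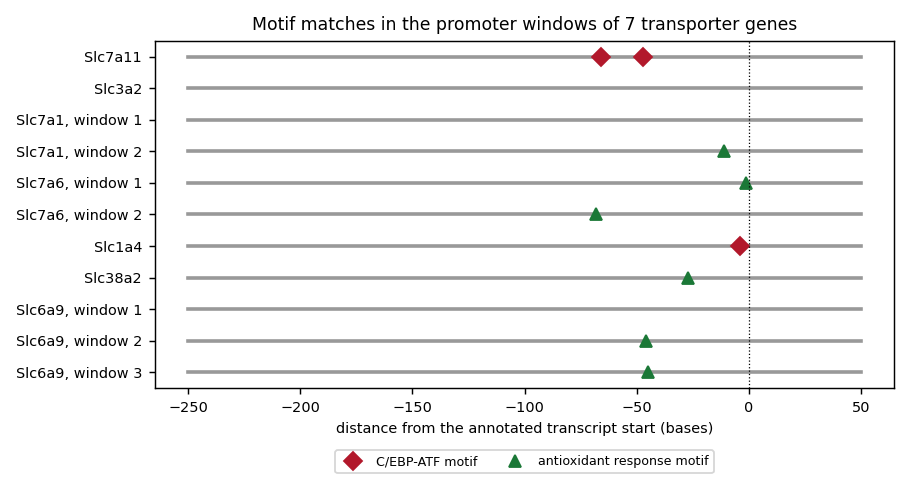
Motif matches in the 11 promoter windows of 7 transporter genes, by distance in bases from the annotated transcript start. Diamonds are TGATGNAA and triangles TGACNNNGC on either strand, and Slc7a11 is the only window with 2 diamonds.

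Values below are deposited signals after each array was scaled to a trimmed mean of 500, in arbitrary units, and a signal is compared between arrays only within a probe set. A change is PGC7 minus control of the same line on the scale of log2(signal + 9), which understates the change of dim probe sets, and its error is the standard error of the limma fit. The call threshold was an adjusted p under 0.05 (Benjamini-Hochberg, over 25236 tested probe sets), and the brightest tested probe set stands for a gene with several. Of the 20 transporter probe sets 19 passed the filter on dim signal, and the dimmer probe set of Slc7a11 did not. All 8 melanocyte markers had their summed signal at 125600 to 144900 in the B16F10 PGC7 arrays and 111100 in the B16F10 control, against 641.2 to 880 in NIH3T3. The 8 fibroblast markers summed to 76630 to 85050 in the NIH3T3 PGC7 arrays and 124200 in their control, against 324.6 to 647.8 in B16F10, so both lines carried the markers of their labels. The part of the lower fibroblast marker sum of NIH3T3 PGC7 arrays in the results below was not tested. Markers of macrophages and epithelial cells summed to at most 537.6 and 397.8 on any array. Dppa3, read by a probe set whose place relative to the viral insert is not given, had signals of 70, 117 and 71 in B16F10 clones 1, 2 and 3 and 23.5 in their control. In NIH3T3 it had 29.7 and 55.4 in clones 1 and 2 and 101 in the uncloned culture, against 69.8 in the control, so this probe set did not check the NIH3T3 labels. It was called in neither line (adjusted p = 0.27 and 0.802).

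The scaling sets what a change is relative to. The poly-A spike transcripts, which are mixed into the RNA ahead of labelling, differed from the control by 0.618, 0.447 and 0.786 (median log2) in B16F10 clones 1, 2 and 3, and by -0.231, -0.498 and -0.296 in NIH3T3 clone 1, clone 2 and the uncloned culture. With the spikes set equal, the median change over the tested probe sets was -0.483 in B16F10 and 0.2 in NIH3T3, against 0.0196 and -0.0748 here. The share of called probe sets that were higher in PGC7 then became 12.8% in B16F10 and 75% in NIH3T3, against 77.7% and 50.6%. Every change below is thus measured against the typical probe set on its array. In these bulk samples, fewer cells that express a gene and less of its RNA per cell cannot be told apart.

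In B16F10 the PGC7 clones had much more Slc7a11 and Slc1a4 signal than the control, and both genes passed the test. In all 3 clones, 8 of the 10 transporters were above the control, a pattern met by 41.3% of all tested genes, and Slc7a6 was below it. The median change of the 10 was 0.57, against 0.05 over all 11643 tested genes. The count of 2 called genes, both higher, stood against 1.18% of all tested genes called higher in B16F10. At an unadjusted p under 0.05, 5 of the 10 transporter genes passed, against 2093 of all 11643 tested genes. By probe set, 4 of the 19 tested, of Slc7a11 and Slc1a4, were at least 2-fold above the control in all 3 clones, against 2.32% of tested probe sets.

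Slc7a11 (chr3:50364936-50499087), the cystine and glutamate exchanger, had signals of 148, 171 and 172 in B16F10 clones 1, 2 and 3 and 16.7 in the B16F10 control. All 3 clones lay close together and far above the control, whose signal was under the 49.3 used to filter dim probe sets. The change was 2.74 ± 0.42 (SE, adjusted p = 0.0228, n = 3 clones and 1 control, limma). The dimmer probe set, which was not tested, gave 44.9, 79.6 and 89.1 in the clones and 2.44 in the control, in the same order. The call did not hold when any of the 3 clones was left out (adjusted p = 0.0784 to 0.0998), while the change stayed at 2.71 to 2.81.

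Slc1a4 (chr11:20302180-20332713), or ASCT1, a sodium-dependent exchanger of alanine, serine, cysteine and threonine, had 1302, 1341 and 1324 in the B16F10 clones and 229.8 in the control. The clones were nearly equal, and the mean of 1322 ± 19.7 (SD, n = 3) was 5.76 times the control. Its change was 2.48 ± 0.19 (SE, adjusted p = 0.00165). Its other probe sets had 487.5, 436.9 and 583.8 in the clones against 86.1 in the control, and 278.2, 302.2 and 223.5 against 54.9. They changed by 2.42 and 2.10 (adjusted p = 0.00276 and 0.0081), so all 3 probe sets of Slc1a4 were called. This call held in each of 17 other settings of the analysis, with a change of 1.66 to 2.52.

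Slc3a2 (chr19:8706882-8723369), the heavy chain, had 5954, 6663 and 4993 in the B16F10 clones and 3808 in the control. Every clone was above the control, by 0.61 ± 0.17, but the test was not passed (adjusted p = 0.131). Slc7a5 (chr8:121881146-121907686), which exchanges large neutral amino acids such as leucine for glutamine, had 6655, 8736 and 6624 in the clones and 5608 in the control. Its change of 0.38 ± 0.19 did not pass (adjusted p = 0.399). The light chain Slc7a6 (chr8:106168219-106198714), which exchanges arginine and glutamine, was lower in every clone, at 704, 725 and 667 against 916 in the control. That change, of -0.39 ± 0.18, did not pass either (adjusted p = 0.369), and its second probe set gave -0.39 as well.

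Slc7a1 (chr5:148327410-148399904), the arginine and lysine carrier CAT-1 and in mouse cells the receptor of ecotropic murine leukaemia viruses, had 7290.2, 9261 and 7623 in the B16F10 clones and 5535 in the control, a change of 0.53 ± 0.22 (adjusted p = 0.310). The type of virus used here is not given in the labels. Slc6a9 (chr4:117835258-117869305), the glycine carrier GlyT1, had 398.3, 561 and 509.7 in the clones and 247.5 in the control. All clones of both genes lay above their control by these probe sets. A dim further probe set of Slc7a1 had 39.0, 18.3 and 31.3 in the clones against 19.7, with clone 2 below the control. The change of Slc6a9, 0.95 ± 0.22, had the lowest adjusted p of the uncalled transporters (0.0865). In a fit of the 4 B16F10 arrays alone, Slc6a9, Slc3a2 and Slc7a1 were also called (adjusted p = 0.0224, 0.0298 and 0.0344). Without the uncloned NIH3T3 culture, whose spread enters the shared estimate, Slc6a9 and Slc3a2 were called (adjusted p = 0.0323 and 0.0438).

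Slc1a5 (chr7:16781334-16798274), the glutamine carrier ASCT2, had 994, 1375 and 1055 in the B16F10 clones and 740.0 in the control. Slc38a2 (chr15:96687392-96699728), or SNAT2, a sodium-coupled carrier of small neutral amino acids, had 9976, 10232 and 9963 in the clones and 9123 in the control. Both genes lay above the control in every clone, but the changes of 0.60 ± 0.29 and 0.14 ± 0.09 did not pass (adjusted p = 0.374 and 0.544). Slc7a3 (chrX:101079146-101090452), the cationic carrier CAT-3, was dim and its clones overlapped the control, at 44.7, 49.9 and 28.9 against 39.9. Its change was 0.01 with a 95% confidence interval of -0.98 to 1.00, nearly 2-fold in either direction. With the spikes set equal, the point estimates of Slc7a5, Slc7a3 and Slc38a2 in B16F10 were below 0, and with the trp spikes added, a choice made after seeing the data, those of Slc3a2, Slc7a1 and Slc1a5 were too.

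**Figure D2:**
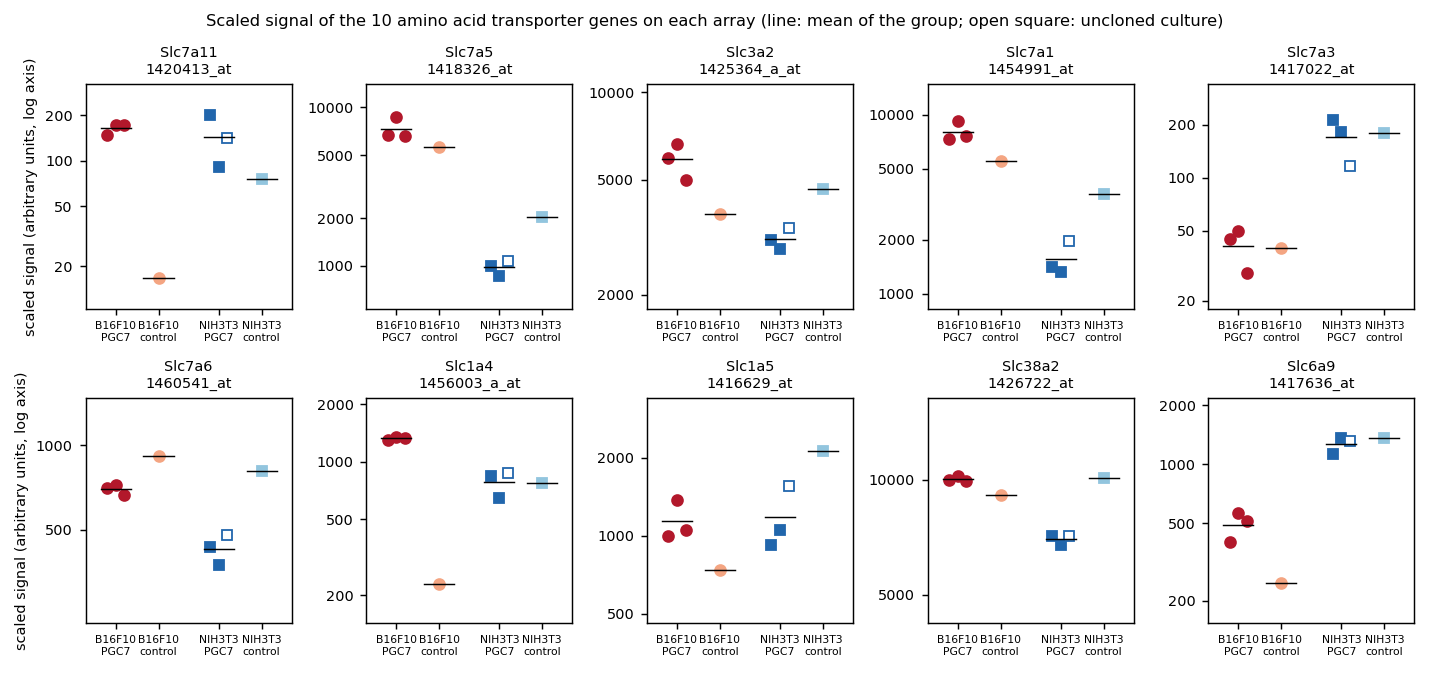
Scaled signal of each transporter gene on each of the 8 arrays (log axis, brightest tested probe set). Filled circles are B16F10 and squares NIH3T3, open squares the uncloned culture, and lines the group means. Slc7a11 and Slc1a4 stand apart from the B16F10 control, and Slc7a5, Slc7a1, Slc7a6 and Slc38a2 lie below the NIH3T3 control in all 3 PGC7 arrays.

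In NIH3T3 no transporter was called higher, against 7.87% of all tested genes, and Slc7a1, Slc7a5, Slc7a6 and Slc38a2 were called lower in PGC7 cells. In all 3 PGC7 arrays, 6 of the 10 were below the control, a pattern met by 36.5% of all tested genes. The median change of the 10 was -0.55, against -0.04 over all tested genes. The 4 called lower stood against 7.35% of all tested genes called lower in NIH3T3. At an unadjusted p under 0.05, 6 of the 10 transporter genes passed, against 3713 of all 11643 tested genes. By probe set, 3 of the 19 tested, namely 2 of Slc38a2 and the dim 1 of Slc1a5, were at least 2-fold below the control in all 3 arrays, against 4.74% of tested probe sets.

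Slc7a1 had 1414 and 1317 in NIH3T3 clones 1 and 2 and 1968 in the uncloned culture, against 3616 in the NIH3T3 control. All 3 PGC7 arrays were well below the control, and the change was -1.22 ± 0.22 (SE, adjusted p = 0.00999). Its second bright probe set gave 1170.3, 1117 and 1612 against 2411, a change of -0.91 (adjusted p = 0.0256). The dim further probe set of Slc7a1 changed by -0.46 and was not called (adjusted p = 0.552). Slc7a5 had 995, 860 and 1077 in clone 1, clone 2 and the uncloned culture against 2037 in the control. It changed by -1.06 ± 0.19 (adjusted p = 0.00899), so PGC7 arrays averaged 0.48 times the control.

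Slc7a6 had 434, 375 and 478 in clone 1, clone 2 and the uncloned culture and 809 in the control. The change was -0.91 ± 0.18 (adjusted p = 0.0155), and the second probe set, at 360.2, 384 and 382 against 739, gave -0.96 (adjusted p = 0.00941). Slc7a6 is the member with a negative point estimate in both lines. Slc38a2 had 7148, 6762 and 7134 in the PGC7 arrays against 10136 in the control, a change of -0.53 ± 0.09 (adjusted p = 0.00883). The dimmer probe sets of Slc38a2 changed by more, -1.23 and -1.48 (adjusted p = 0.0221 and 0.0245), with 1984, 1598 and 2211 against 4497 and 70.6, 73.2 and 110.2 against 248. All 3 probe sets of this gene were called lower.

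Slc3a2 had 3104, 2871 and 3395 in clone 1, clone 2 and the uncloned culture and 4638 in the control, below the control in each but not past the threshold (change -0.57 ± 0.17, adjusted p = 0.0578). It was called after quantile normalization, without the uncloned culture and without B16F10 clone 3 (adjusted p = 0.0369, 0.0197 and 0.0492). Slc1a5 had 917, 1056 and 1556 against 2114. Its change of -0.88 ± 0.29 did not pass (adjusted p = 0.0832), but it was called without the uncloned culture (adjusted p = 0.00504). Its dim second probe set was called, at 53.4, 25.3 and 18.5 against 178, by -2.27 (adjusted p = 0.0243). Slc6a9 had 1125, 1358 and 1309 against 1355 and Slc7a3 had 212, 181 and 117 against 179.6, and both overlapped their control. Their changes were -0.10 and -0.11 (adjusted p = 0.801 and 0.896).

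The transporters called in B16F10 were not called in NIH3T3. Slc7a11 had 199.7, 90.8 and 141 in clone 1, clone 2 and the uncloned culture and 75.5 in the control, above it in all 3 but with a wide spread (change 0.79 ± 0.42, adjusted p = 0.256). Clone 1 exceeded clone 2 by 1.06 log2 units, and the SD of its log2 values was 0.533 in NIH3T3 PGC7 arrays, against 0.119 in B16F10 clones and a median of 0.239 over all tested probe sets in NIH3T3. Slc1a4 had 837, 643 and 874 against 771. It overlapped the control, with a change of 0.01 and a 95% confidence interval of -0.43 to 0.45. Its other probe sets changed by 0.34 and 0.48, and neither was called (adjusted p = 0.354 and 0.215).

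In NIH3T3 the calls depended on which arrays shared the estimate of spread. In a fit of the 4 NIH3T3 arrays alone only Slc7a5 was called, while Slc7a1, Slc38a2 and Slc7a6 had adjusted p of 0.0529, 0.082 and 0.0953. With the spikes set equal only Slc7a1 was called (adjusted p = 0.037). The direction of all 4 was negative in each of the 17 other settings.

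**Figure D3:**
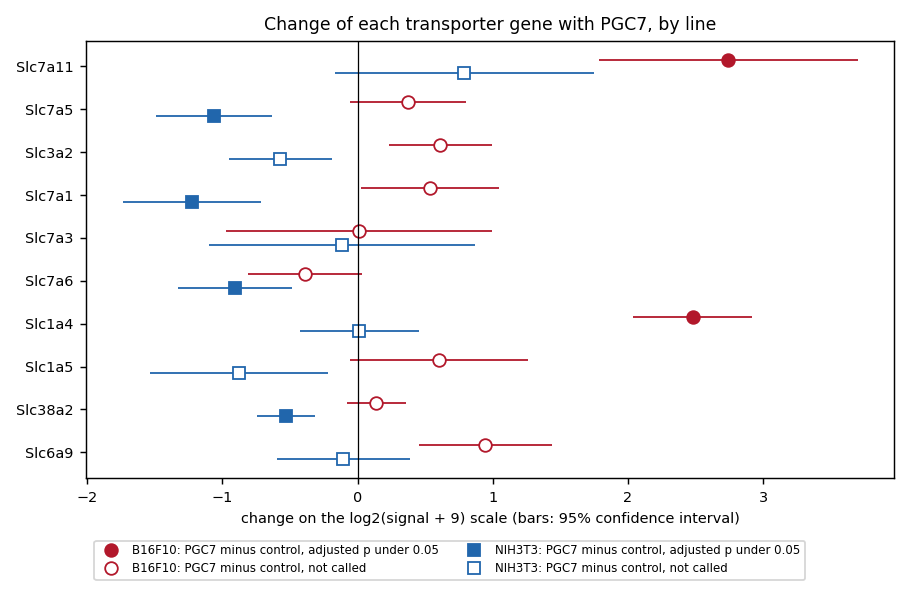
Change of the 10 transporters with PGC7 on the log2(signal + 9) scale, B16F10 (circles) and NIH3T3 (squares), with 95% confidence intervals from limma. Filled symbols passed the adjusted p of 0.05: Slc7a11 and Slc1a4 in B16F10, and Slc7a5, Slc7a1, Slc7a6 and Slc38a2 in NIH3T3.

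The difference between the lines, the B16F10 change minus the NIH3T3 change, was tested directly. It was positive in point estimate for all 10 transporters with this scaling, of which Slc38a2, Slc7a6 and Slc7a3 were negative with the spikes set equal and Slc7a3 also after quantile normalization, and it was called for 5: Slc1a4, Slc7a1, Slc7a5, Slc3a2 and Slc38a2. This compares with 4.89% of all tested genes called in that direction, and the median difference of the 10 was 1.31 against 0.09 over all tested genes. For Slc1a4 the difference was 2.47 ± 0.27 (SE, adjusted p = 0.00261), and for Slc7a1 it was 1.76 ± 0.32 (adjusted p = 0.0164). The light chain Slc7a5 and its partner Slc3a2 differed by 1.43 ± 0.27 and 1.19 ± 0.24 (adjusted p = 0.0184 and 0.0232). Slc38a2 differed by 0.67 ± 0.13 (adjusted p = 0.0228). The dimmer probe sets of Slc38a2 differed by more, 1.65 and 2.15, and were called as well (adjusted p = 0.0403 and 0.0336).

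Slc7a11 had the second largest estimate, 1.95, but its error of 0.59 left it uncalled (adjusted p = 0.0893, 95% confidence interval 0.60 to 3.31). Slc1a5 and Slc6a9 differed by 1.48 and 1.05 and were not called (adjusted p = 0.0677 and 0.0795), though both were without the uncloned culture (adjusted p = 0.00434 and 0.0404). The dim second probe set of Slc1a5 was called, at 3.00 (adjusted p = 0.0459), and the second of Slc6a9 was not, at 1.45 (adjusted p = 0.105). Slc7a6 and Slc7a3 differed by 0.52 and 0.12 (adjusted p = 0.279 and 0.929). By arrays, 5 of the 10 genes were above their control in all 3 B16F10 clones and below it in all 3 NIH3T3 PGC7 arrays, a pattern met by 14.5% of all tested genes. These were Slc7a5, Slc3a2, Slc7a1, Slc1a5 and Slc38a2.

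These differences, like the changes within a line, depended on the scaling and on the arrays in the fit. With the spikes set equal, only Slc1a4 was called (adjusted p = 0.00863), and the differences of Slc38a2, Slc7a6 and Slc7a3 were -0.15, -0.29 and -0.60. Slc7a3 was also at -0.25 after quantile normalization and at -0.11 without the uncloned NIH3T3 culture. With the deposited values left unscaled, Slc3a2 and Slc38a2 were not called (adjusted p = 0.0598 and 0.103). Leaving out B16F10 clone 1 or NIH3T3 clone 1 ended the call of Slc3a2 (adjusted p = 0.0688 and 0.0508). Leaving out any B16F10 clone ended that of Slc38a2 by its brightest probe set (adjusted p = 0.0643 to 0.0697).

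**Figure D4:**
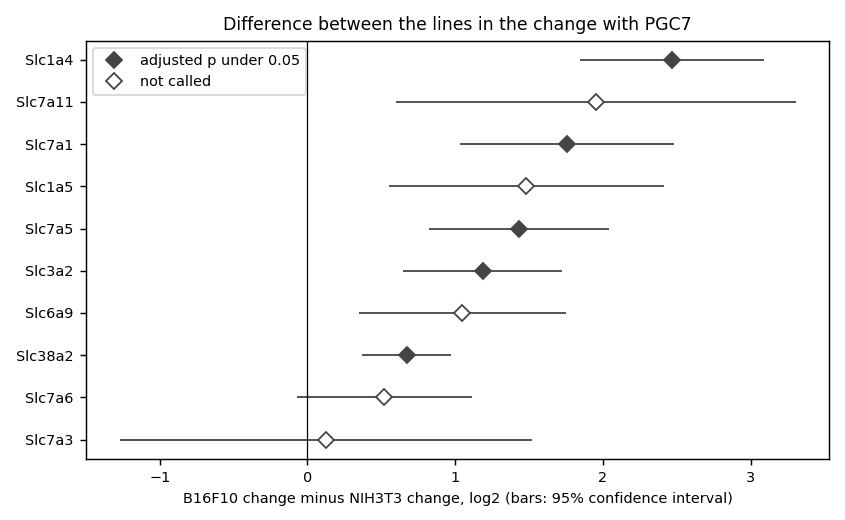
B16F10 change minus NIH3T3 change for each transporter, in log2 units with 95% confidence intervals. Filled diamonds passed the adjusted p of 0.05, and all 10 estimates lie above 0 with this scaling, from 0.12 for Slc7a3 to 2.47 for Slc1a4, while those of Slc38a2, Slc7a6 and Slc7a3 were negative with the spikes set equal.

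A change common to B16F10 and NIH3T3 was fitted with an additive term for line, and no transporter was called by limma, against 0.189% of all tested genes. At an unadjusted p under 0.05, 3 genes passed. Slc7a11 gave 1.77, Slc1a4 1.25 and Slc7a6 -0.65 (adjusted p = 0.127, 0.205 and 0.133).

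Between the PGC7 arrays of the lines, 6 transporters were higher in B16F10 and 2 lower, against 36.5% of all tested genes called higher and 36.7% called lower. Slc7a5 averaged 7338 ± 1211 in B16F10 PGC7 clones against 977 ± 109.6 in NIH3T3 PGC7 arrays (SD, n = 3 each), a difference of 2.89 log2 units. Slc7a1 averaged 8058 and 1566 (2.37 log2 units). Slc3a2, Slc7a6 and Slc38a2 were also higher in B16F10, by 0.90, 0.70 and 0.52. Slc7a3 and Slc6a9 were lower in B16F10, by 1.82 and 1.36 log2 units, while Slc7a11 and Slc1a5 did not pass (adjusted p = 0.488 and 0.931). Slc1a4 was not settled: its brightest probe set was higher in B16F10 by 0.76, but the other 2 gave -1.20 and -2.24. Slc38a2 and Slc7a1 also each had a dimmer probe set that went the other way, at -0.71 and -0.95 (adjusted p = 0.00944 and 0.024). The dim second probe set of Slc1a5 was called higher in B16F10, by 1.05 (adjusted p = 0.0291). Since all arrays of a line may form a batch of their own, line and batch cannot be told apart.

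**Figure D5:**
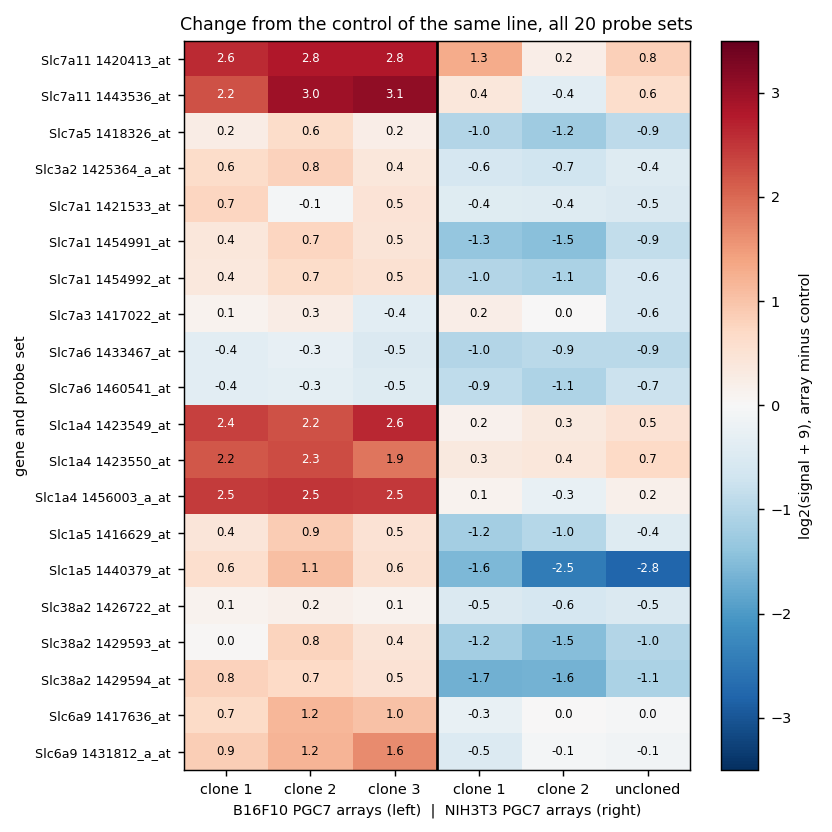
Change of each of the 20 transporter probe sets on each PGC7 array from its own line's control (log2 of signal + 9, array minus control, with the value in each cell). The 3 Slc1a4 and 2 Slc7a11 probe sets are above 1, a 2-fold change, in every B16F10 clone, and the Slc7a1, Slc7a6 and Slc38a2 rows are below 0 in every NIH3T3 PGC7 array.

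How alike the transporters were over the 6 PGC7 arrays was described by the root mean square difference of their log2 changes. The closest pair was Slc7a5 and Slc7a1 at 0.197, followed by Slc7a1 and Slc1a5 at 0.272. Slc7a11 and Slc1a4, both called in B16F10, were 0.62 apart, and Slc7a11 and Slc7a6 were the farthest at 2.53. Among 11538 other genes, those nearest to Slc7a5 were Trim24, Ivd and Dennd11 at 0.0882, 0.124 and 0.136, nearer than any other transporter. Nearest to Slc7a11 were Scara5, Hs3st1 and Ccng2, at 0.488, 0.515 and 0.535. For Slc3a2 they were Plgrkt, Stoml1 and Stx2, at 0.109, 0.117 and 0.124, and for Slc7a3 Ate1, 5730409E04Rik and Xrcc1, at 0.129 to 0.15. Arrays of a line share their control, so this is a description of 6 columns and not a test.

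The genes around the transporters were taken from lists written with earlier results of these data known. Of all tested genes, 1.18% were called higher in B16F10, and in NIH3T3 7.87% were called higher and 7.35% lower. Of 28 other plasma membrane amino acid transporters, 14 were tested, and none was called in B16F10 (median change 0.08). In NIH3T3, 2 of the 14 were called lower, against 7.35% of all tested genes. The glutamate carrier Slc1a3 averaged 18.8 in PGC7 arrays against 754 in the control (change -4.83, adjusted p = 0.00113). Its signals of 26.2, 9.83 and 20.4 in clone 1, clone 2 and the uncloned culture were under the filter signal of 49.3. Slc1a3 thus passed the filter only through the lone NIH3T3 control, on which its call rests, and it was tested in only 9 other settings. The system A carrier Slc38a4 averaged 296 against 2746 (change -3.76, adjusted p = 0.0341). The SD of Slc38a4 over the 3 PGC7 arrays, 338, exceeded its mean, and its call was kept in 7 of 16 other settings (adjusted p up to 0.101). The difference between the lines was called for Slc1a3 (4.95, adjusted p = 0.00953). Its B16F10 signals were only 0.869 in the control and 1.18 to 2.57 in the clones, so a fall could not have been seen there. That difference therefore restates the NIH3T3 change.

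The amino acid response list held Atf4, its known targets and, apart from those, the kinases Eif2ak4 and Eif2ak3. It had the largest share of called genes among these lists in B16F10. There 11 of 17 tested were called higher, against 1.18% of all tested genes, and none lower, with a median change of 1.24. Neither Eif2ak4 nor Eif2ak3 was called there (adjusted p = 0.785 and 0.379). Nupr1, a stress-induced chromatin protein, averaged 4218 ± 747 in clones against 178 in the control (change 4.49, adjusted p = 0.000153). Trib3, a pseudokinase induced by ATF4, averaged 2170.2 ± 220 against 126 (change 4.01, adjusted p = 0.00094). Ddit4, an inhibitor of mTORC1 signalling, and Chac1, which cleaves glutathione, changed by 3.15 and 2.88 (adjusted p = 0.00261 and 0.00165). Atf3 and Asns, the asparagine synthetase, changed by 2.21 and 1.65 (adjusted p = 0.0257 and 0.014). The call of Atf3 was lost when any B16F10 clone was left out and was kept in 11 of 16 other settings (adjusted p up to 0.114).

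Atf4 itself averaged 11434 ± 666 in B16F10 clones against 7300 in the control, a change of 0.65 (adjusted p = 0.043). That call was kept in 6 of 16 other settings. In NIH3T3, 2 of the 17 were called higher, against 7.87% of all tested genes, with a median of -0.04 over the list. These were Atf3, by 1.49, and the translation inhibitor Eif4ebp1, by 0.84 (adjusted p = 0.0263 and 0.00306). The NIH3T3 call of Atf3 was kept in 10 of 16 other settings. Between the lines, 7 of the 17 were called as more positive in B16F10, against 4.89% of all tested genes.

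None of 10 tested genes of cysteine, glutathione and thioredoxin metabolism was called in B16F10 (median change -0.25). At an unadjusted p under 0.05 by limma, 6 of the 10 passed there, against 2093 of all 11643 tested genes. Between the lines, 1 of the 10 was called as more positive in B16F10 and 3 as more negative, against 569 and 471 of all 11643 tested genes. In NIH3T3 the glutathione-cycle enzyme Ggct was called higher, averaging 2591 in PGC7 arrays against 293 in the control (change 3.10, adjusted p = 6.9e-05). Cth, which makes cysteine from cystathionine, was called lower (change -2.24, adjusted p = 0.0121). This is 1 of the 10 in each direction, close to the 7.87% and 7.35% of all tested genes called higher and lower in NIH3T3. Of 8 tested genes of glutamine and glutamate metabolism, Gpt2 and Asns were called higher in B16F10. Gpt2, the mitochondrial alanine transaminase, averaged 2024 ± 135 against 335 (change 2.56, adjusted p = 0.00094). In NIH3T3 Glud1, glutamate dehydrogenase, was called lower, at -0.52 (adjusted p = 0.0251), a call kept in 6 of 16 other settings.

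Among 25 tested genes of organelle transport and lysosomal amino acid sensing, Sesn2, a leucine sensor, was the only gene called in B16F10, higher by 2.01 (adjusted p = 0.0226), and this call was lost when any B16F10 clone was left out (adjusted p up to 0.0785). In NIH3T3, 2 of the 25 were called higher and 2 lower, close to the 7.87% and 7.35% of all tested genes. Nprl3 and the mitochondrial aspartate and glutamate carrier Slc25a13 were called higher, by 0.99 and 0.83 (adjusted p = 0.0135 and 0.0409). Sesn1 and Slc25a12 were called lower there, at -1.49 and -0.53 (adjusted p = 0.0124 and 0.0451). The calls of Slc25a13 and Slc25a12 were kept in 8 and 6 of 16 other settings.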

How the data were processed

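The authors deposited linear intensity values, a signal for every probe set of each array, from MAS5, per the submitters' processing notes, with no version or settings stated there. The B16F10 columns shared a trimmed mean (2% cut at each end) of 500, and the NIH3T3 columns did not, so each NIH3T3 array was multiplied to that mean, by 2.81 (control), 2.65 (uncloned), 3.49 (clone 1) and 3.14 (clone 2). Signals were taken as log2(signal + 9). Of 45101 probe sets, 64 were controls and 19801 had a mean log2 value below the overall median (signal 49.3) in both lines. Symbols came from the platform annotation, updated by gene identifier to GRCm38.p6: 34958 probe sets had 1 symbol, 932 several and 9211 none.

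limma 3.58.1 in R 4.3.3 fitted 4 group means to all 8 arrays, with an intensity trend in the variance prior (8.50 total degrees of freedom, 9.19 for the additive fit). A lone control was assumed to vary like the PGC7 arrays, and the number of arrays limits the precision. Tests were two-sided. The fit was tested on simulated data. All 10 members were named, as were at most 6 called genes of a list in each line and direction, and the 3 genes most like each of 4 members. The members and lists were chosen with earlier results of these data known. Alternatives covered scaling, pseudocount, filter, arrays in the fit, variance prior, left-out arrays and probe set choice.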

Additional observations from a re-analysis of the deposited data

Results flagged for a closer look

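Among the transporters, 5 changed differently with PGC7 in the lines by a test of the difference itself (B16F10 change minus NIH3T3 change, log2): Slc1a4 by 2.47, Slc7a1 by 1.76, Slc7a5 by 1.43, Slc3a2 by 1.19 and Slc38a2 by 0.671. Slc1a5 was picked out because every B16F10 clone was above its control and every NIH3T3 PGC7 array below its own. Its difference of 1.48 by the brightest probe set did not pass the test (adjusted p = 0.0677), while that of its dim second probe set did (3.00, adjusted p = 0.0459). Each of these rests on 1 control array per line.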

How the results depend on the processing

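Main counts were 300 called probe sets in B16F10, 3229 in NIH3T3, 1737 for the difference and 39 across both lines, with 2, 4, 5 and 0 transporter genes, and 710 and 2168 probe sets differed 2-fold or more from the control in all PGC7 arrays of B16F10 and NIH3T3. Unscaled values gave 1045 for the difference with 3 transporters, 18 across both lines, 0 transporters lower by line level, 1 transporter probe set 2-fold lower in NIH3T3 (3 in the main setting), and line levels of 1.57 for Slc1a5 and 0.24 for Slc6a9. Quantile normalization gave 199 in B16F10. Setting the poly-A spikes equal gave 1295, 4220 and 91 for B16F10, the difference and both lines, 1 transporter lower in NIH3T3, 1 for the difference and 1 transporter probe set 2-fold lower in NIH3T3, with the difference of Slc38a2 at -0.15. Spikes with the trp probe sets, chosen after seeing the data, gave 6530, 9430 and 217, with 0, 0 and 1 transporters for NIH3T3, the difference and both lines, and 3628 probe sets 2-fold in B16F10 and 1 transporter probe set 2-fold lower in NIH3T3. Atf4 in B16F10 was then -0.20, and the differences of Slc3a2, Slc38a2, Rraga, Gpx4 and Got2 were -0.16, -0.67, -0.30, -1.14 and -1.29, besides the uncalled Slc6a9, Slc7a6 and Slc7a3 at -0.27, -0.81 and -1.07.

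Pseudocounts of 1 and 32 gave 1070 and 346 probe sets 2-fold in B16F10. No filter gave 177 called with 1 transporter in B16F10, and 1410 and 3799 by 2-fold. Without the variance trend the counts were 70, 2127, 934 and 5, with 1 transporter in B16F10 and 1 for the difference. Fits of a line alone gave 2865 with 5 transporters in B16F10 and 1292 with 1 in NIH3T3. Leaving out each PGC7 array gave 59 to 1814 in B16F10 (1 to 4 transporters), 2001 to 6124 in NIH3T3 (4 to 6), 739 to 4407 for the difference (3 to 7), 5 to 29 across both lines, and 913 to 1151 and 2595 to 3256 by 2-fold (3 to 6 transporter probe sets lower in NIH3T3). The mean of a gene's probe sets gave line levels of -0.89 for Slc1a4 and 0.51 for Slc1a5. The causes were not tested. Single-line fits and left-out arrays hold fewer arrays, and among them some gave more calls than the main setting and others fewer. The call of Slc7a11 in B16F10 was kept in 12 of 17 settings, and those of Slc7a5 and Slc7a1 in NIH3T3 in 15 each. No paired analysis was possible because each line has 1 control array and clone numbers do not link the groups. Dim signals, such as Slc7a3 in B16F10 and the Slc7a11 control, limit what could be called.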
